A study of Mus musculus with 2 samples.

Results

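Cycling C1q-high tumor macrophages were 82 of the 5022 immune cells profiled by single-cell RNA sequencing from B16-OVA tumors, 32 in the library labelled WT and 50 in the library labelled KO. They were selected on measured unique molecular identifiers (UMIs, each 1 captured RNA molecule): at least 10 of C1qa, C1qb and C1qc together, at least 1 of Csf1r, at most 2 of Cd3d, Cd3e and Cd3g together, fewer than 3 each of Cd209a and Siglech, and at least 3 of Mki67, Top2a and Birc5 together. The cells that met every part except the last, 238 in the WT-labelled and 186 in the KO-labelled library, are called C1q-high macrophages here. Of these, 145 and 99 had 0 UMIs of Mki67, Top2a and Birc5 and are called noncycling, and 61 and 37 had 1 or 2. Each library came from 1 genotype, Maoa wild type or Maoa knock out, and each was made from 10 tumors that were combined before live CD45.2-positive cells were sorted and 10000 of them were loaded. The tumors of both groups grew from B16-OVA, a melanoma line of the mouse made to express ovalbumin, so the groups differed in the genotype of the host. Maoa encodes monoamine oxidase A, a mitochondrial enzyme that degrades serotonin and other amines and releases hydrogen peroxide. The mutant strain was described by the study as a Maoa hypomorph on the C57BL/6J background, and the mutation was carried by all cells of the host rather than by macrophages alone. With 1 library per genotype there was no replicate, so no test between genotypes was possible. Every interval given here is a 95% interval that covers counting error only. The intervals are exact, except those of differences of shares, which combine the exact intervals of both shares.

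Tumor macrophages are supplied by blood monocytes and can also divide where they reside. Monocytes that enter a tumor lose Ly6c2 and Ccr2 and gain macrophage genes such as Mrc1, the C1q genes and Apoe, and C1q is the recognition molecule that starts the classical complement pathway. A dividing cell transcribes replication genes under E2F control in S phase and then mitotic genes under control of the DREAM and MuvB complexes, whose binding sites in promoters include the CHR element. Mki67 marks the proliferating state, Top2a untangles replicated DNA and Birc5 (survivin) belongs to the chromosomal passenger complex of mitosis.

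The libraries held 2392 cells with a median of 9887.5 UMIs (WT-labelled) and 2630 cells with a median of 6945.5 (KO-labelled), over 17232 genes. The members were deeper than the noncycling C1q-high macrophages: their median was 25030 UMIs (5397 to 51067) against 11898 in the WT-labelled library, and 23066 (4132 to 48962) against 12812 in the KO-labelled library. Their mitochondrial share was a median of 1.91% and 2.07%, against 1.28% and 1.42% in the noncycling cells. The part of depth in the results was not tested, except where values at 1 thinned depth are given. Of the cell barcodes, 13 occurred in both libraries, 1 of them in a WT-labelled member. Maoa itself had 7 UMIs in the WT-labelled and 15 in the KO-labelled library, and 0 and 2 UMIs in the members. A 3′ tag outside a disrupted part of a gene does not check a genotype, so the groups are named by their labels.

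The marker genes fitted proliferating macrophages. Every member had a UMI of Cd68, a lysosomal macrophage protein, at 990 CPM (UMIs of the gene per 1000000 UMIs of the same cells) in the WT-labelled and 1031 in the KO-labelled library. The cycling T cells of the same libraries had 33.9 and 45.0 CPM of it. Adgre1, which encodes F4/80, was detected in 87.5% and 90% of members, and at 8500 UMIs per cell in 67.7% and 77.6% of members and 2.31% and 3.52% of T cells. Trem2 stood at 376 and 436 CPM, against 3.30 and 3.60 in cycling T cells, and Fcgr1 at 289 and 228 CPM, against 7.93 and 8.55. Mertk, a receptor for clearance of dying cells, was detected in fewer members, 31.3% and 30%, at 14.9 and 22.9 CPM, and in no cycling T cell. Stmn1, a microtubule regulator that the selection did not use, was detected in 96.9% and 100% of members at 503 and 646 CPM, against 22 and 85.2 CPM in noncycling cells.

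Defining genes of several other cell types were at or near 0 in the members, and some list sums were not. The 15 T cell genes, of which the rule limits Cd3d, Cd3e and Cd3g to 2 UMIs together, summed to 174 and 131 CPM (highest member 13 and 8 UMIs), close to the 193 and 126 CPM of noncycling macrophages and far below the 6988 and 6197 CPM of T cells. The 11 NK cell and cytotoxic genes summed to 309 and 208 CPM in the members, 357 and 248 CPM in noncycling macrophages and 7663 and 8495 CPM in T cells. The 13 dendritic cell genes were higher in members than in noncycling cells, at 179 and 193 against 91.0 and 118 CPM, with 3 or more UMIs in 21 of 32 and 34 of 50 members, and 1 of them, Cadm1, an adhesion molecule, was called higher in both libraries (97.1 against 39.4, 114 against 53.6 CPM). All 6 mast cell and basophil genes were at 0, as were Klrb1c and Eomes of the NK cell list, Ms4a1 and Pax5 of the B cell list, and Clec9a and Il12b of the dendritic cell list. The 12 neutrophil genes summed to 169 CPM in WT-labelled and 18.6 CPM in KO-labelled members, with Ly6g, Camp, Ngp, Ltf, Mmp9 and Cxcr2 at 0. They showed the same order in noncycling cells (441 and 48.1 CPM) and in T cells (258 and 25.6 CPM). The order was also the same in Csf1r-positive cells with at most 2 C1q UMIs (605 and 388 CPM). The 11 melanoma genes summed to 238 and 762 CPM, and 1 KO-labelled member held most of the latter: its 48962 UMIs included 428 of Dct, 77 of Tyrp1, 30 of Mlana and 14 of Pmel, beside 14 of C1q and 2 of Csf1r. The highest WT-labelled member had 19 UMIs of these genes. The part of these transcripts in the results below was not tested, and values without that KO-labelled member are given beside the named genes whose call it changed.

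The median C1q content of the members lay far above the selection limit, whereas the lowest KO-labelled member was close to it. The sum of C1qa, C1qb and C1qc was 42 UMIs in the lowest WT-labelled member, 293.5 in the median and 580 in the highest, and 14, 297 and 665 in the KO-labelled members, whereas the noncycling medians were 65 and 77. Per 10000 UMIs of the cell, which takes out the greater depth of the members, the medians were 131 against 50.2 and 122 against 58.5. The sum of Mki67, Top2a and Birc5 was 3, 13.5 and 48 UMIs (lowest, median, highest) in the WT-labelled and 3, 13 and 75 in the KO-labelled members. At the threshold, 4 WT-labelled and 6 KO-labelled members had exactly 3 of these UMIs, and 13 and 10 C1q-high macrophages just outside had exactly 2.

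**Figure D1:**
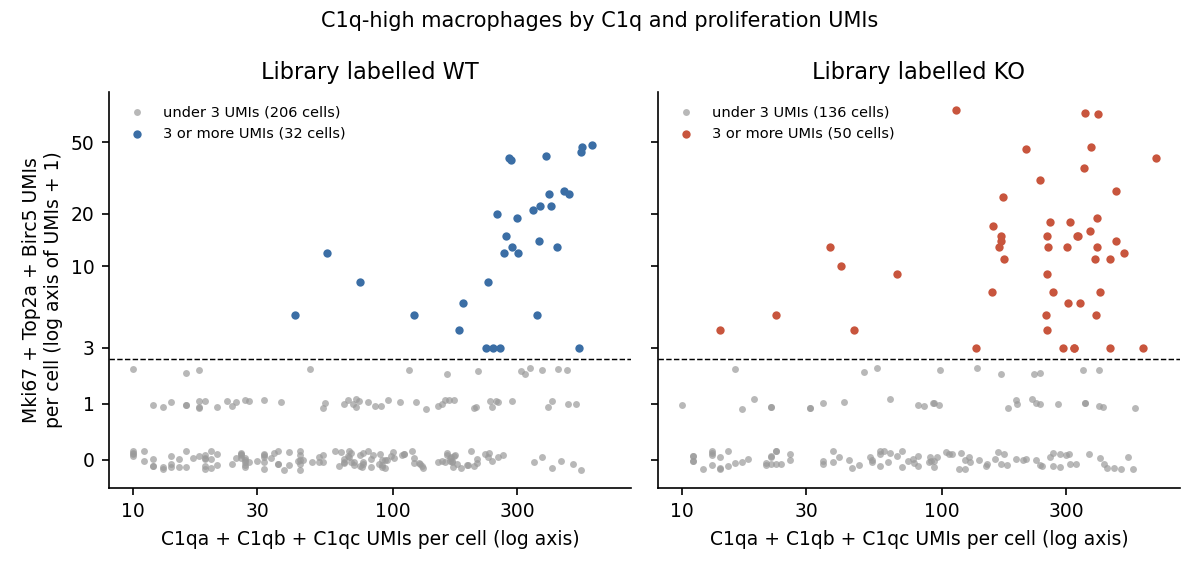
Each point is 1 C1q-high macrophage, with its C1qa, C1qb and C1qc UMIs on the horizontal axis and its Mki67, Top2a and Birc5 UMIs on the vertical axis (both log axes; points under 3 are jittered), in the WT-labelled (left) and KO-labelled (right) library. The dashed line marks the selection at 3 UMIs, and most members lie to the right, with median C1q sums of 293.5 and 297.

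The share of C1q-high macrophages that were cycling was 13.4% (32 of 238, interval 9.38 to 18.4) in the WT-labelled and 26.9% (50 of 186, 20.7 to 33.9) in the KO-labelled library, a difference of 13.4 percentage points (5.45 to 21.5). C1q-high macrophages themselves were 9.95% and 7.07% of all cells, so the members were 1.34% and 1.90% of all cells. The order of the shares depended on how much proliferation RNA was asked for. At 5 or more UMIs of Mki67, Top2a and Birc5 the shares were 11.3% and 22%, and at 10 or more 8.82% and 16.7%, but at 20 or more they were 5.46% (13 cells) and 5.38% (10 cells). Cells with 7 to 19 UMIs were 10 of 238 (4.20%) in the WT-labelled and 26 of 186 (14.0%) in the KO-labelled library.

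The gap was of similar size at 1 thinned depth and smaller at another and without the deepest cells. Without cells above the 95th percentile of UMIs the shares were 10.4% and 16.5%, a difference of 6.19 points whose interval, −1.30 to 14.3, includes 0. At a common depth of 8400 UMIs per cell, reached by 218 and 167 of the cells, 22 (10.1%) and 39 (23.4%) were cycling; 20 and 19 cells fell short of that depth. Thinned to 3700 UMIs, which 1 cell of each library did not reach, the shares were 8.86% (21 of 237) and 10.8% (20 of 185), a difference of 1.95 points whose interval ran from −4.03 to 8.27. At that depth a share with 1 or more of these UMIs was 18.6% (44 of 237) and 27.6% (51 of 185). Summed over all C1q-high macrophages without any threshold, Mki67 stood at 28.3 CPM in the WT-labelled and 53.0 CPM in the KO-labelled library, a log2 ratio of 0.90 (0.55 to 1.26). Top2a stood at 46.1 and 76.8 CPM (0.74, 0.45 to 1.02) and Birc5 at 99.3 and 149 CPM (0.58, 0.39 to 0.78). The 202 listed cell cycle genes together stood at 8251 and 11210 CPM, a log2 ratio of 0.44 (0.42 to 0.46).

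**Figure D2:**
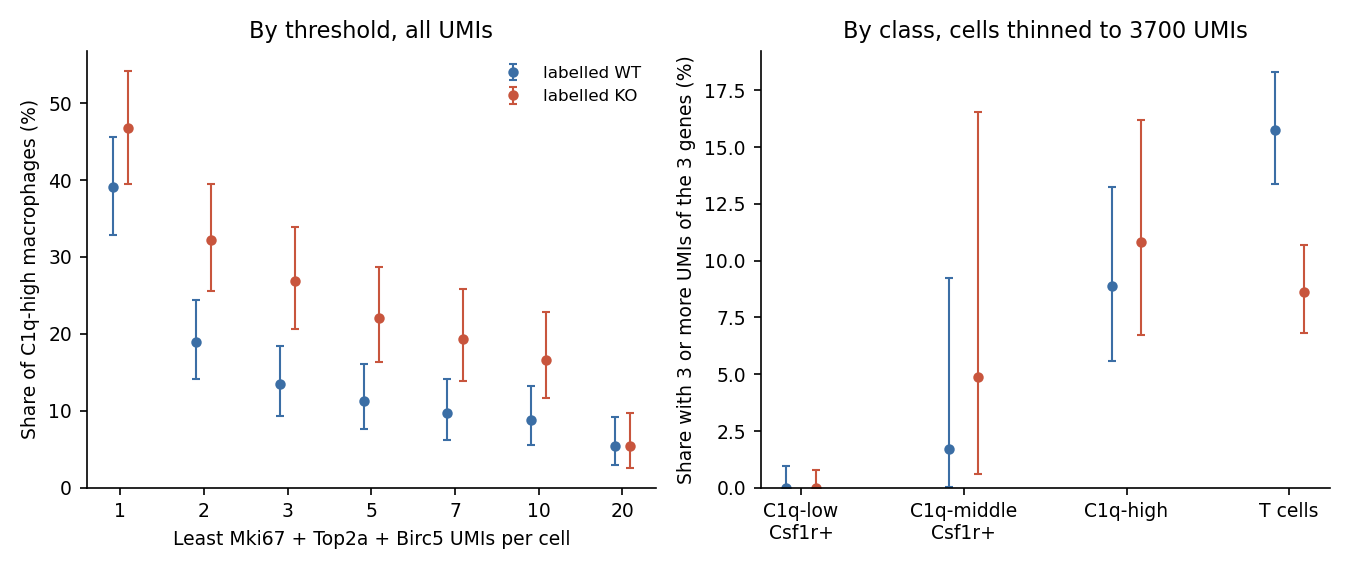
Left, the share of C1q-high macrophages (%) at or above each number of Mki67, Top2a and Birc5 UMIs per cell, and right, the share with 3 or more by class after each cell was thinned to 3700 UMIs; points are libraries and bars exact 95% intervals for counting error. The KO-labelled point lies above the WT-labelled one from 1 to 10 UMIs and at the same height at 20 (5.46% and 5.38%).

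Csf1r-positive cells with little C1q were rarely cycling. Csf1r-positive cells with at most 2 C1q UMIs contained 1 cycling cell of 389 (0.257%) and 3 of 481 (0.624%), and thinned to 3700 UMIs 0 of 384 and 0 of 469, which allows shares of up to 0.956% and 0.783%. Cells with 3 to 9 C1q UMIs contained 1 of 58 and 2 of 42. The T cells of the same libraries had the opposite order of labels, 26.1% (235 of 902) in the WT-labelled and 10.8% (118 of 1090) in the KO-labelled library, and at 3700 UMIs 15.7% and 8.60%, with 31 and 241 T cells below that depth.

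Within the C1q-high class, compared at 8400 UMIs per cell, the share that was cycling was lower among cells with Ly6c2 or Ccr2, with intervals that did not overlap in either library, and varied with C1q content, which the rule used. At 60 or more C1q UMIs, 21.6% of cells (21 of 97) were cycling in the WT-labelled and 33.3% (30 of 90) in the KO-labelled library, against 1.75% (1 of 57) and 9.38% (3 of 32) at 10 to under 30 and 0% (0 of 53, interval up to 6.72%) and 16.7% (6 of 36) at 30 to under 60. The intervals of the highest and lowest C1q ranges overlapped in the KO-labelled library (23.7 to 44.1 and 1.98 to 25). Cells with a UMI of Ly6c2, a surface protein of inflammatory monocytes, were cycling in 2.59% and 7.89%, and cells without in 18.6% and 36.3%. For Ccr2, the receptor that draws monocytes to tissue, the shares were 3.13% and 12.9% with a UMI and 20% and 36.5% without. Mrc1, the mannose receptor CD206, went the other way, with 15.9% and 29.4% of cells with a UMI cycling and 6.15% and 13.8% of those without, although these intervals overlapped. For Folr2, a folate receptor (12.5% and 22.2% with a UMI, 9.79% and 23.7% without), the intervals overlapped in both libraries.

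The members held both replication and mitotic transcripts. In each member the UMIs of the replication licensing, fork and nucleotide genes (S genes) were set against those of the mitotic kinase, kinetochore, spindle and anaphase genes without Mki67, Top2a and Birc5 (G2/M genes). S genes made up a median of 22.9% (11.6 to 63.0) of these UMIs in the WT-labelled and 24.0% (9.78 to 59.1) in the KO-labelled members. No member exceeded 75%, and few other cells did: 1 of 145 and 0 of 96 noncycling cells, and 3 of 234 and 1 of 118 cycling T cells. The noncycling medians were 36.1% and 33.0%, with 3 KO-labelled cells left out for too few of these UMIs. The share also depends on how abundant the genes of each list are. In the range under 25% lay 19 of 32 WT-labelled members (59.4%, interval 40.6 to 76.3) and 26 of 50 KO-labelled members (52%, 37.4 to 66.3). The ranges are not cell types, and 11 and 13 members lay within 5 points of the limit at 25%.

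Several genes known for each stage stood apart between the ranges, although Rrm2, Cenpa and Ube2c belong to the lists that set the ranges and Ccne1 does not. Ccne1, the cyclin of S phase entry, stood at 26.7 CPM in WT-labelled members at 25 to 75% S genes and at 1.98 CPM under 25%. In the KO-labelled library it stood at 59.2 and 3.5 CPM. These levels rest on 8 against 1 UMIs (log2 3.25, interval 0.85 to 9.22) and on 36 against 2 (3.78, 2.12 to 7.18). Rrm2, a subunit of ribonucleotide reductase, stood at 80.2 against 29.8 CPM and at 148 against 8.74 CPM. Cenpa, the centromeric histone, was lower at 25 to 75% S genes, at 104 against 452 CPM and 78.9 against 402 CPM, and Ube2c, which hands ubiquitin to anaphase substrates, at 96.9 against 411 and 80.6 against 395 CPM. Mrc1 (220 and 236 CPM in the WT-labelled, 293 and 377 in the KO-labelled library) and H2-Aa (2185 and 2308, 990.1 and 1276) differed by less than counting error between the ranges in the WT-labelled library and were lower at 25 to 75% S genes in the KO-labelled one (−0.37 for each). Other stage genes did not stand apart: Tyms, thymidylate synthase, had a log2 ratio of 25 to 75% over under 25% of −0.40 (−1.41 to 0.49) and 2810417H13Rik, a replication gene, of 0.34 (−0.15 to 0.81) in the WT-labelled library, and Pttg1, a mitotic gene, of −0.25 (−0.89 to 0.38) in the KO-labelled one. Outside the members, S genes per UMI reached the members' 10th percentile in 33 of 145 (22.8%) and 21 of 99 (21.2%) noncycling cells and in 22 of 61 (36.1%) and 20 of 37 (54.1%) cells with 1 or 2 UMIs.

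**Figure D3:**
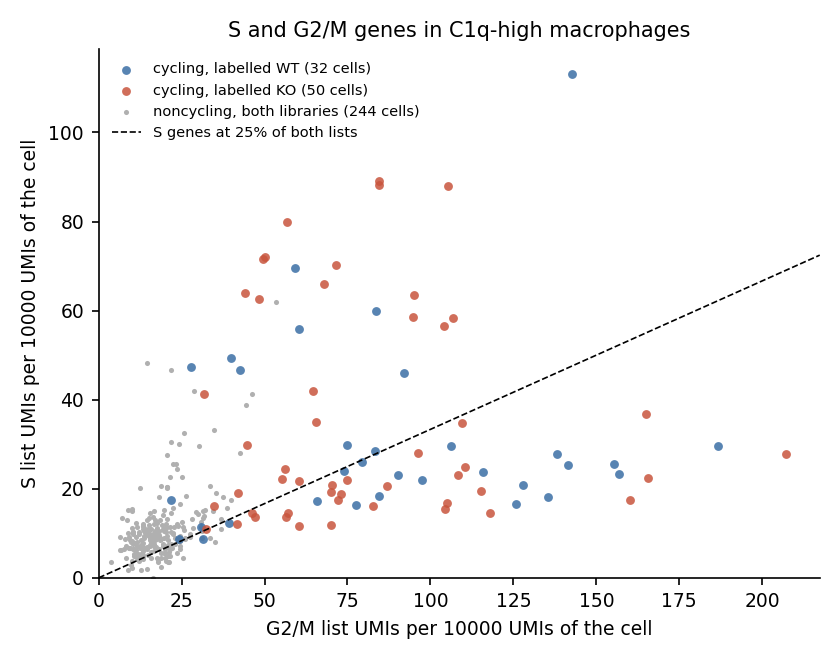
Each point is 1 C1q-high macrophage, with G2/M gene UMIs per 10000 UMIs of the cell on the horizontal axis and S gene UMIs per 10000 on the vertical axis, for 32 WT-labelled and 50 KO-labelled members and 244 noncycling cells of both libraries. The dashed line marks S genes at 25% of both lists: 19 WT-labelled and 26 KO-labelled members lie under it, and most noncycling cells lie near the origin.

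Many, though not all, promoters of the mitotic genes shared certain letters. In RefSeq promoters of build GRCm38.p6, from 250 bases before to 50 after the start, the CCAAT box (CCAAT) together with the CHR (TTTGAA or TTTAAA) occurred on either strand in 36 of 67 G2/M genes (53.7%; Mki67, Top2a and Birc5 counted in this set), in 7 of 59 S genes (11.9%) and in 965 of 12167 genes of the table (7.93%). E2F letters, which are TTTGGCG and TTTCCCG as well as TTTGCCG or else TTTCGCG, occurred on either strand in 11.9%, 35.6% and 10.3%. A match is a description of letters and does not show a bound site. The promoters of Ccnb1 (chr13:100786437-100786736, minus strand) and Cdc20 (chr4:118437294-118437593, minus strand) are shown as mitotic genes, and that of Mcm3 (chr1:20820263-20820562, minus strand) as a replication gene, since they differed between the libraries in the members. Pttg1 (chr11:43425932-43426231, minus strand), a mitotic gene that differed as well, held none of these letters in its window and is not printed. The sequences are written 5′ to 3′ on the strand of the gene, with matches in capitals on either strand.
Ccnb1: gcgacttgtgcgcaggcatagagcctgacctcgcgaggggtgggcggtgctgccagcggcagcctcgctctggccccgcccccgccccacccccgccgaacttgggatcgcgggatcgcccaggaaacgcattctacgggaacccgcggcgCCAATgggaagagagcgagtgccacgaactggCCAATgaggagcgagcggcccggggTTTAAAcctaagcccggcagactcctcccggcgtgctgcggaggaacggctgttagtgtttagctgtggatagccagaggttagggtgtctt
Cdc20: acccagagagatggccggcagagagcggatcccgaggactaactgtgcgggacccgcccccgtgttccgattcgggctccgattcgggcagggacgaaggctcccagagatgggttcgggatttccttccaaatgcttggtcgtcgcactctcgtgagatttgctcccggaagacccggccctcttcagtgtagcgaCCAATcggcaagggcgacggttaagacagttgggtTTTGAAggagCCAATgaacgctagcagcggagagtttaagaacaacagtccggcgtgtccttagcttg
Mcm3: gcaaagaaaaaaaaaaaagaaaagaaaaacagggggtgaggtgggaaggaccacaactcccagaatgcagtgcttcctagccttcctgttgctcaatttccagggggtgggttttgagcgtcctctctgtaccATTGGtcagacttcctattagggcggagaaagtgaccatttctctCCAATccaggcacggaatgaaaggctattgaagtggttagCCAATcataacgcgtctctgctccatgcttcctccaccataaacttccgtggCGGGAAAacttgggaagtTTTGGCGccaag
Ccnb1 and Cdc20 each held 2 CCAAT boxes and 1 CHR and no E2F letters, whereas Mcm3 held 3 CCAAT boxes and 2 E2F matches and no CHR.

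Compared with noncycling C1q-high macrophages of the same library, the members had more of several mitotic, spindle and chromosome structure genes and less of many monocyte genes and of part of the class II and interferon genes. A gene is called past the fold here when it had at least 100 UMIs in the compared cells, a log2 ratio of at least 1 in size and an interval that left out equal levels, and in this comparison in both libraries. Of 2837 genes with enough UMIs, 71 (2.5%) were higher and 74 (2.61%) lower in the members, at a median log2 ratio over all genes of 0.11 and 0.10. With each cell thinned to 1 depth, 23 of 1442 genes were higher, 20 of them among the 71, and 51 lower. Since the selection used genes of this contrast, and the members were deeper, these values describe the members and are no test.

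Genes of division that are near 0 in noncycling cells reached the minimum of UMIs mainly through the members, so the counts of higher genes describe which genes could be seen and support nothing further. Of the 22 genes of the condensin, cohesin and chromosome structure list, 11 had enough UMIs and 9 were higher, among them Top2a of the rule, Smc4, a condensin subunit (223 against 22.5 CPM in the WT-labelled, 158 against 28.9 in the KO-labelled library), and Hmgb2, a chromatin protein (805 against 126, 602 against 129). Of the 27 spindle genes, 5 had enough UMIs and 4 were higher, and Tuba1b, a tubulin, stood at 1612 against 583 and 1832 against 737 CPM. Of the 24 kinetochore genes 3 had enough UMIs, Birc5 of the rule included, and of the 19 mitotic cyclins and kinases 2, and these were higher. Ccnb2, cyclin B2, stood at 156 against 4.09 and 144 against 16.5 CPM. Ube2c stood at 294 against 8.69 CPM (log2 5.04) and 233 against 13.1 CPM (4.12). Of 10 genes of the anaphase-promoting complex list, 5 had enough UMIs and 3 were higher. The other lists held 3 higher of 7 with enough UMIs for nucleotide synthesis (20 listed), 1 of 4 for the replication fork (32 listed), 1 of 6 for G1/S cyclins and regulators (22 listed) and 1 of 1 for licensing (19 listed). Hist1h2ap, a replication-dependent histone, had the highest ratios outside the rule, at 276 against 5.11 CPM (5.69) and 317 against 3.44 CPM (6.39). The gene 2810417H13Rik, also known as Pclaf, a PCNA-binding factor, stood at 192 against 7.67 CPM in the WT-labelled library (log2 4.60) and had a ratio of 4.94 in the KO-labelled one. Cdkn1a, the CDK inhibitor p21, was lower at 182 against 453 and 169 against 317 CPM (log2 −1.31 and −0.91), short of the limit in the KO-labelled library.

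The lower genes included several of monocytes. Ranked first was Gm9733 (log2 −7.01 and −4.21), which is not on the monocyte list. Of the monocyte list, 7 of 9 genes with enough UMIs were lower, beside 2.61% of all genes. Some reached the minimum mainly through noncycling cells, such as Ly6c2 (28 against 922 UMIs in the WT-labelled library), so this count supports nothing further. The list summed to 754 and 1010 CPM in the members against 4969 and 4122 CPM in noncycling cells. Ly6c2 stood at 34.9 against 472 CPM (log2 −3.73) in the WT-labelled and 43.2 against 547 CPM (−3.65) in the KO-labelled library, and Plac8 at 92.1 against 1927 (−4.38) and 120 against 1295 CPM (−3.42). At 8500 UMIs per cell, a depth that 1 member of each library, 17 and 14 noncycling cells and 469 and 834 T cells did not reach, a Ly6c2 UMI was found in 29.0% and 18.4% of members, in 64.1% and 62.4% of noncycling macrophages, and in 61.9% and 50.8% of T cells, which also transcribe it. A Ccr2 UMI was found in 25.8% and 28.6% of members, 66.4% and 64.7% of noncycling macrophages and 14.8% and 25% of T cells. Chil3 (Ym1), an alternative activation gene that monocytes also carry, stood at 4.98 against 115 and 26.3 against 247 CPM, and the chemokine gene Ccl24 at 19.9 against 150 and 5.93 against 542 CPM. In the WT-labelled cells with 0 melanoma UMIs other than Gpnmb, the log2 ratio of Ccl24 was of the opposite sign, at 1.58.

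Part of the antigen presentation and interferon genes were lower as well. Of 8 MHC class II genes, 4 were past the fold, beside 2.61% of all genes that were lower. The list summed to 17100 and 9979.5 CPM in members against 36635 and 30535 CPM in noncycling cells. H2-Aa, a class II chain, stood at 2262 against 5309 (log2 −1.23) and 1129 against 4127 CPM (−1.87), and Cd74, the invariant chain, at 6642 against 15829 (−1.25) and 3759.5 against 13517 CPM (−1.85). Of 22 interferon response genes, 8 were lower, including Rsad2 (47.3 against 326, 22 against 213 CPM) and Isg15 (375 against 1026, 212 against 525 CPM). The cytokine gene Il1b stood at 73.5 against 399 and 28.0 against 241 CPM. Of 14 MHC class I genes with enough UMIs none was past the fold, at medians of −0.25 and −0.34.

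Most genes of the C1q and mature macrophage list, which holds genes of the rule, were short of the limit: of 23 with enough UMIs, 1 was higher (Gas6) and 1 lower (Spp1) in both libraries, beside 2.5% and 2.61% of all genes. Spp1, osteopontin, stood at 746 against 2257 CPM (−1.60) in the WT-labelled and 544 against 1266.5 CPM (−1.22) in the KO-labelled library. Gas6, a bridging ligand for clearance of dying cells, was past the fold in both libraries (75.9 against 23.5 CPM, log2 1.69, and 245 against 97.6 CPM, 1.32). Mrc1 stood at 230 against 114 CPM (1.02) and 334 against 208 CPM (0.68), above noncycling cells in both libraries but past the limit in the WT-labelled one alone. At 8500 UMIs a Mrc1 UMI was found in 87.1% and 77.6% of members, 35.9% and 55.3% of noncycling cells and 0.9% and 3.9% of T cells. The C1q genes, which the rule used, followed the same direction (C1qa log2 1.0 and 0.60), whereas Csf1r, the receptor for the growth factor CSF1, did not (219 against 291 CPM, −0.41, and 256 against 331 CPM, −0.37). No gene of the oxidative phosphorylation list (23), the glycolysis and hypoxia list (19) or the ribosomal protein list (25) was past the fold, at medians of 0.19 and 0.37, −0.52 and −0.30, and 0.18 and 0.07.

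**Figure D4:**
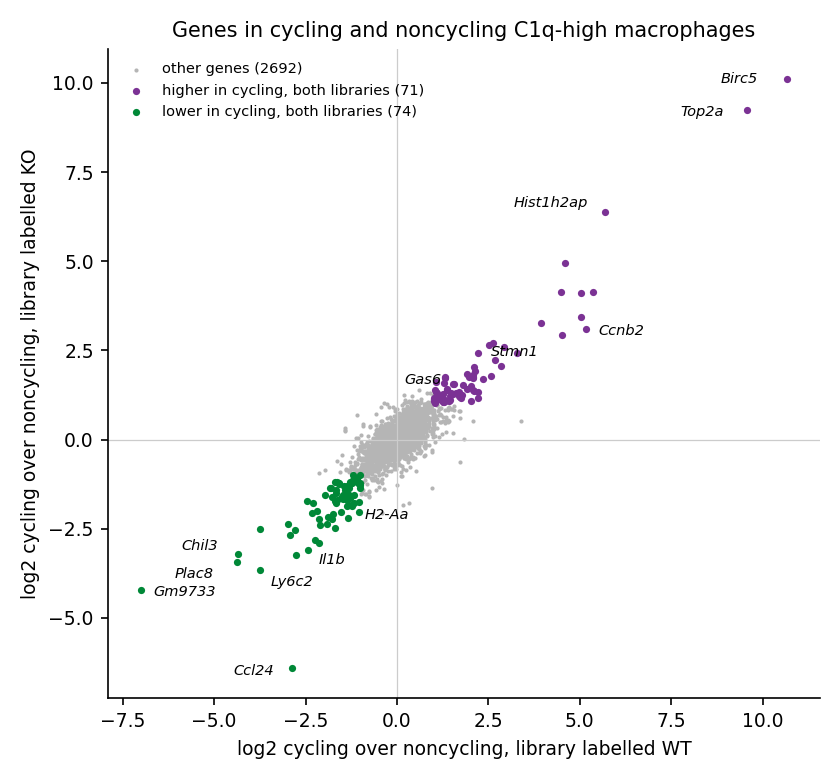
Each point is 1 of 2837 genes, with its log2 ratio of cycling over noncycling C1q-high macrophages in the WT-labelled library on the horizontal axis and in the KO-labelled library on the vertical axis; 71 genes are higher and 74 lower past the fold in both. Top2a and Birc5 were used by the selection and are at 0 in noncycling cells, so their positions rest on the added 0.5 UMIs.

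Cycling T cells, the other large dividing population, gave a second standard for the same genes. The 202 cell cycle genes summed to 18518 CPM in WT-labelled members against 28297 CPM in cycling T cells of that library (log2 −0.61, −0.64 to −0.59), and to 18836 against 28032 CPM in the KO-labelled library (−0.57, −0.60 to −0.55). Replication lists lay below T cells in both libraries, licensing genes by log2 −1.09 and −0.66, fork genes by −1.21 and −0.84, and nucleotide synthesis genes by −1.08 and −0.80. They were the lowest lists in the WT-labelled library, whereas in the KO-labelled library mitotic cyclins and kinases (−0.80) and chromosome structure genes (−0.74) lay below licensing genes. Dut, which removes dUTP, stood at 78.4 against 525 CPM and 136 against 472 CPM. The S gene share of cycling T cells was likewise higher, at medians of 34.3% and 38.7%.

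Birc5, which chose both classes, and Tk1, a thymidine kinase, were level with T cells (log2 −0.06 and −0.03, 0.07 and −0.06). Ccnd1, the G1 cyclin D1, stood higher in the macrophages, at 115 against 5.51 CPM (4.36) and 130 against 21.6 CPM (2.57). Cdkn1a stood at 182 against 114 CPM and 169 against 106 CPM (0.67 in both libraries), and Cdkn2a, the locus of p16 and ARF, at 4.98 against 62.3 and 3.39 against 50.9 CPM (−3.48 and −3.74). Dck, which phosphorylates deoxycytidine, stood at 80.9 against 33.7 and 79.6 against 40.1 CPM.

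Between the libraries, KO-labelled members carried more of several mature macrophage genes, and WT-labelled members more of H2-Aa, Cd86, Il1rn, Mmp12, Pttg1, Ccnb1 and Cdc20. Of 2514 genes with at least 100 UMIs over the members, 24 (0.955%) were past the fold in the KO-labelled direction and 44 (1.75%) in the WT-labelled direction, at a median log2 ratio of KO-labelled over WT-labelled of 0.05. In the 29 members with 0 melanoma UMIs other than Gpnmb 868 genes had enough UMIs, 15 and 11 of them were past the fold, and 2 and 4 of the same genes were among them. Of the 26 genes of the C1q and mature macrophage list with enough UMIs, 6 were higher in KO-labelled members (Apoe, Gas6, Folr2, Stab1, Cbr2 and Fcrls) and 1 was lower, at a list median of 0.24. Genotype and library cannot be told apart here.

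Cbr2, a carbonyl reductase, ranged from 0 to 3 UMIs in WT-labelled members (median 0) and from 0 to 30 (median 0.5) in KO-labelled members, which overlap. Summed, it stood at 14.9 and 169 CPM, a log2 ratio of 3.44 (2.66 to 4.47). At 8500 UMIs it was found in 3.2% and 28.6% of members and in 0% and 0.4% of T cells. Gas6 ranged from 0 to 33 (median 0) and from 0 to 28 UMIs (median 3), for 75.9 and 245 CPM and a ratio of 1.68 (1.29 to 2.11). Of the 61 WT-labelled Gas6 UMIs, 33 came from 1 cell, and without the top cell of each library the ratio was 2.62. It was found in 19.4% and 55.1% of members and 0.5% and 0.8% of T cells.

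Stab1, a scavenger receptor, had medians of 1.5 and 5 UMIs (highest 18 and 31) and stood at 133 and 304 CPM (1.19, 0.88 to 1.52). Apoe, the lipid carrier apolipoprotein E, had medians of 19.5 and 32.5 (0 to 226 and 0 to 354 UMIs) and stood at 1185 and 2543 CPM (1.10, 1.0 to 1.21). Fcrls stood at 39.8 and 163 CPM (2.01) and Folr2 at 48.6 and 99.1 CPM (1.02, 0.50 to 1.59), with 36 of 117 KO-labelled UMIs in 1 cell, so that its ratio without the top cell of each library was just short of the limit. The KO-labelled and WT-labelled cells overlapped for each of these genes.

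Ratios of the same sign were found in noncycling C1q-high macrophages, where Cbr2 had a log2 ratio of 2.53 (1.74 to 3.48), Fcrls 2.52, Gas6 2.04, Folr2 2.01, Stab1 1.09 and Apoe 0.96. Apoe was also higher in KO-labelled C1q-low cells (1.17, 1.10 to 1.25) and T cells (0.49, 0.26 to 0.73). Stab1 went the other way in C1q-low cells (−1.19), and Cbr2, Fcrls, Gas6 and Folr2 had few UMIs in these 2 classes. Of the 24 genes higher in KO-labelled members, 21 had the same sign in noncycling cells and 12 were past a log2 ratio of 1 there. The matching shares over all genes tested are not given here, so these counts describe these genes only. The largest ratio of all, that of Dct, a melanin synthesis gene, was 3.55 (31.1 and 371 CPM), but 428 of its 438 KO-labelled UMIs came from the member rich in melanoma genes, and without that member it was −1.77. Chchd10 (2.01), Ero1l (1.47) and Ndrg1 (1.07) also turned negative without that cell (−0.54, −0.43 and −0.11), and Mt2, a metallothionein, fell from 1.63 to 0.70.

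Some ratios were shared by all classes of cells. Apobec3, an antiviral cytidine deaminase, stood at 21.2 and 76.3 CPM in the members (1.82), with ratios of 1.58 in noncycling macrophages and 2.52 in T cells. Cap1, an actin regulator, stood at 370 and 85.6 CPM (−2.11), with −1.95 and −2.11 in the other classes, and Jund, an AP-1 subunit, at 248 and 68.6 CPM (−1.85), with −1.62 and −1.60. For these genes the members did not stand apart from the other cells of their library.

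Of 8 MHC class II genes with enough UMIs, 1 was past the fold, H2-Aa, which was lower in KO-labelled members. Over all genes tested, 1.75% were past the fold in this direction. It ranged from 2 to 186 UMIs with a median of 44 in WT-labelled members, and from 1 to 220 with a median of 8.5 in KO-labelled members, and stood at 2262 and 1129 CPM (−1.0, −1.11 to −0.90). Cd74 had medians of 146 and 22.5 UMIs (2 to 517 and 1 to 772) and stood at 6642 and 3759.5 CPM (−0.82), and H2-Ab1 had medians of 48 and 10 and stood at 2392 and 1551 CPM (−0.62), both short of the limit. The list had a median of −0.75, and the noncycling ratio of H2-Aa was −0.36 (−0.41 to −0.32), whereas T cells had the opposite order (426 and 889 CPM). Cd86, a costimulatory ligand for T cells, was found in 78.1% and 42% of members and stood at 85.9 and 28.8 CPM (−1.57, −2.21 to −0.96), against −0.86 in noncycling cells. At 8500 UMIs a Cd86 UMI was found in 45.2% and 24.5% of members and in 18.9% and 22.3% of T cells. Icam1, an adhesion ligand, stood at 79.7 and 37.3 CPM (−1.09).

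A few inflammatory and lipid genes were also higher in WT-labelled members: 1 of 3 genes with enough UMIs of the inflammatory cytokine list (Il1rn), 2 of 16 chemokine genes (Cxcl10 and Ccl4), and 3 of 10 sterol and fatty acid genes (Cd36, Fabp4 and Fabp5). The share over all genes tested was 1.75%. Il1rn, the interleukin-1 receptor antagonist, had medians of 2 and 0 UMIs (highest 17 and 20) and stood at 179 and 47.5 CPM (−1.91, −2.39 to −1.46), with −1.12 in noncycling macrophages, −1.12 in C1q-low cells and −1.44 in T cells. Mmp12, macrophage elastase, stood at 600 and 97.4 CPM (−2.62), with 193 of 482 WT-labelled UMIs in 1 cell, and at −2.62 without the top cell of each library. The T cell attractant Cxcl10 stood at 209 and 103 CPM (−1.02) and the chemokine gene Ccl4 at 813 and 265 CPM (−1.61), with −1.09 and −1.53 in noncycling macrophages. In the 7 WT-labelled and 22 KO-labelled members without melanoma UMIs other than Gpnmb, the ratios of Ccl4 and Fabp4 were of the opposite sign, at 2.45 and 1.89. Fabp5, a fatty acid carrier, stood at 2279.5 and 1133 CPM (−1.01), and the scavenger receptor Cd36 at 213 and 96.6 CPM (−1.14). Without the top cell of each library Cd36 was at −0.76, and without the member rich in melanoma genes Cxcl10 was at −0.95 and Fabp5 (−1.0) just short of the limit, so these calls were lost.

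Of the 16 interferon response genes with enough UMIs, 2 were past the fold, Gbp7 (115 and 48.3 CPM) and Iigp1 (156 and 49.1 CPM, −1.66, with 61 of 125 WT-labelled UMIs in 1 cell). The list median was −0.71, and 1.75% of all genes tested were past the fold in the WT-labelled direction. Mrc1 had medians of 4 and 5.5 UMIs and stood at 230 and 334 CPM (0.53, 0.28 to 0.80). The chemokine genes Ccl2 (1775 and 2112 CPM, 0.25) and Ccl7 (1587 and 1605 CPM, 0.02) were short of the limit. Chil3 had 4 and 31 UMIs, Tnf 38 and 23, Cd69 5 and 7, and Il6 0 and 1, too few for a comparison. The neutrophil genes moved in the same direction as the inflammatory genes (169 and 18.6 CPM), as they did in T cells, and their part in these results was not tested. Of the 44 genes higher in WT-labelled members, 38 had the same sign in noncycling macrophages and 15 were past a ratio of 1 there. Here too the shares over all genes tested are not given, so the counts describe these genes only.

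**Figure D5:**
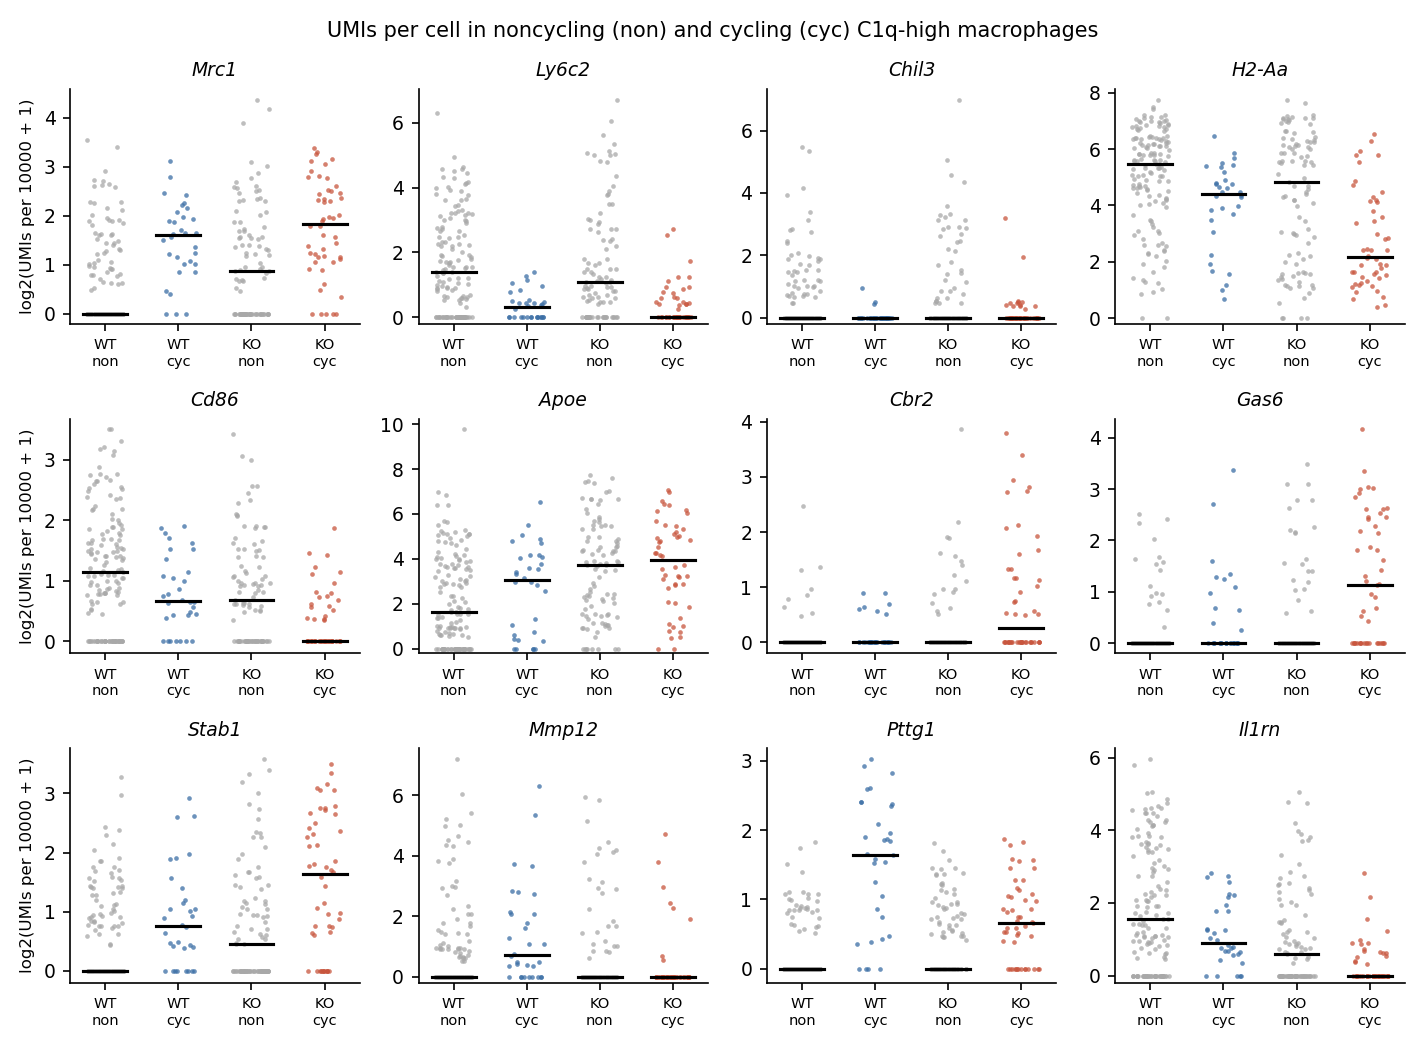
Each point is 1 C1q-high macrophage, with log2 of UMIs per 10000 UMIs of the cell plus 1 on the vertical axis, for 12 genes in noncycling (non) and cycling (cyc) cells of the WT-labelled and KO-labelled library; black bars are medians. The 4 groups overlap for every gene, and the H2-Aa bar of KO-labelled cycling cells (3.49 UMIs per 10000) lies below that of WT-labelled ones (20.4).

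A few mitotic genes differed between the members of the libraries: 1 of 6 mitotic cyclins and kinases (Ccnb1) and 2 of 6 genes of the anaphase-promoting complex list (Pttg1 and Cdc20), but 0 of 8 kinetochore and 0 of 9 spindle genes. All were higher in WT-labelled members, as were 1.75% of all genes tested. The intervals of the share of members under 25% S genes overlapped. Pttg1, securin, which holds sister chromatids together until anaphase, ranged from 0 to 26 UMIs (median 5.5) in WT-labelled and from 0 to 7 (median 1) in KO-labelled members, and stood at 234 and 75.4 CPM (−1.63, −2.01 to −1.26). Ccnb1, cyclin B1, stood at 138 and 59.3 CPM (−1.22, −1.67 to −0.78), and Cdc20, the activator of the anaphase-promoting complex, at 147 and 61.9 CPM (−1.24, −1.69 to −0.81). Within the members under 25% S genes, Pttg1 stood at 325 and 82.1 CPM, Ccnb1 at 204 and 90.9 CPM and Cdc20 at 208 and 108 CPM. In the same cells Ube2c (411 and 395 CPM), Cenpa (452 and 402 CPM) and Ccnb2 (212 and 234 CPM) were close. The noncycling ratio of Pttg1 had the opposite sign (22 and 52.2 CPM, 1.24). Mcm3, a subunit of the replicative helicase, was higher in KO-labelled members at 32.4 and 72.9 CPM (1.15, 0.52 to 1.86), with 1.08 in noncycling cells, and Ccnd2, cyclin D2, was lower at 95.9 and 36.4 CPM (−1.39). In cycling T cells Pttg1 likewise stood at 347 CPM in the WT-labelled and 86.0 CPM in the KO-labelled library (−2.01, −2.24 to −1.80), whereas Ccnb1 had a ratio of −0.16 (−0.40 to 0.08) and Cdc20 of −0.29 (−0.48 to −0.10) there. The other cell cycle genes with enough UMIs, listed with medians of −0.25 for mitotic cyclins and kinases, 0.45 for licensing and 0.33 for fork genes, were short of the limit.

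Within each library the members varied most in a mixed set of mostly abundant genes. With each member thinned to 14800 UMIs, which left out 3 and 5, the ratio of variance to mean over cells was a median of 1.20 over 3416 genes in the WT-labelled and 1.21 over 3419 genes in the KO-labelled library. In the WT-labelled members the highest ratios were those of Fth1, the ferritin heavy chain (109), Ftl1, the ferritin light chain (81.1), and Actb, an actin (70.5), and in the KO-labelled members those of Cd74 (145), Dct (130), carried mainly by 1 cell, Fth1 (129) and Actb (106). Cd74 reached a ratio of 61.8 in WT-labelled members (mean 110 thinned UMIs) and 145 in KO-labelled members (mean 51.1). The chemokine gene Ccl8 reached 51.6 and 71.3. Hmox1, heme oxygenase, reached 19.8 and 101, with 358 of 1313 KO-labelled UMIs before thinning in 1 cell. These ratios describe cells of 1 library and carry no error across animals.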

How the data were processed

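Libraries were made with the Chromium Single Cell 3′ V2 chemistry, and per the labels and methods the authors processed them with Cell Ranger (version not given in the sources used here), combined them, aligned to mm10 and analysed them in Seurat. The deposited table is described as raw counts, but its values are natural log values: each is ln of 1 plus UMIs scaled to 10000 per cell. Reversing the scale gave whole UMI counts for 100% of nonzero values (tolerance 0.01), which were used in all steps. All 2392 and 2630 deposited cells were kept, with no doublet calling; doublet removal before deposit is not stated in the sources used here. The members and gene lists were chosen with earlier results of these data known.

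UMIs were summed per class and library and expressed as CPM. Intervals were exact 95% (Poisson for levels, conditional binomial for ratios, Clopper-Pearson for shares), and log2 ratios used 0.5 added UMIs. Those of differences of shares were of the Newcombe type, built from the exact intervals of both shares, and are not exact. Cells were thinned without replacement. Total UMIs per library were 28801253 and 23702018, and those of the members 803260 and 1180220. The 2 libraries were never pooled within a comparison, and no replicate test was possible. Named genes were those of the selection rule, those the study names for tumor macrophages, the 4 list members with most UMIs, members past the fold, the 12 highest and 12 lowest ratios of each comparison, and markers at 0; some of these are not reported here. The text gives those that carry a result, and Mlana, Pmel, Tyrp1, Hmox1, Ccl8, Ccl12, Dnajb1, Rrm2, Ccne1, Dut, Dck, Ftl1, Actb and Tyms were added after their values were seen. Promoter sequences are those of RefSeq (GRCm38.p6), matched for 12167 of 17232 gene symbols. The summing was tested on simulated data. Python 3.11.15, numpy 2.4.6, scipy 1.17.1 and matplotlib 3.10.9 were used. Alternatives covered the cycling threshold, depth, the UMI minimum, scaling, the noncycling class, and members with other cells' transcripts.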

Additional observations from a re-analysis of the deposited data

Results flagged for a closer look

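Cycling over noncycling ratios had opposite signs in the 2 libraries, with intervals that left out equal levels in each, for 10 of 2837 genes, 6 of them in the gene lists and the other 4 Gdf15, Mmp12, Anpep and Dap3. The difference between the libraries was not tested, since each genotype had 1 library. Fabp4, a fatty acid carrier, had a log2 ratio of 0.97 in the WT-labelled and −1.36 in the KO-labelled library, a KO minus WT difference of −2.33. Of its 99 UMIs in WT-labelled cycling cells 44 came from 1 member, and without that member the level was 71.4 CPM in place of 123, beside 62.9 CPM in noncycling cells.

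The other 5 genes were lower in cycling cells of the WT-labelled library and higher in those of the KO-labelled library. Among monocyte-attracting chemokines, Ccl2 differed by 1.31 (−0.94 and 0.37), Ccl12 by 1.35 (−0.42 and 0.92) and Ccl7 by 1.36 (−0.92 and 0.44). Of the KO-labelled UMIs, 545 of Ccl2 and 527 of Ccl12 came from 1 member each, and without that member the KO-labelled levels were 1698 and 1134 CPM in place of 2112 and 1549. The noncycling levels of Ccl2 were 3407 and 1631 CPM, and those of Ccl7 3002 and 1181 CPM, while the cycling levels of Ccl7 were 1587 and 1605 CPM.

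Hmox1, heme oxygenase, differed by 1.75 (−1.42 and 0.33), and without its top member, which held 358 UMIs, the KO-labelled level was 826 CPM in place of 1113, below the 887 CPM of noncycling cells, so the opposite sign was lost. Dnajb1, a heat shock cochaperone, differed by 1.78 (−1.08 and 0.70), and without the member with most UMIs the KO-labelled level was 46.6 CPM in place of 59.3, beside 36.4 CPM in noncycling cells. For Fabp4, Ccl2, Ccl12 and Dnajb1 no interval is given without the top member, so it is not shown that equal levels were still left out.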

How the results depend on the processing

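No paired analysis was possible because each genotype had 1 library. The share of C1q-high macrophages that were cycling kept its order except at 20 or more UMIs, where the difference was −0.0858 points (5.46% and 5.38%). It moved to 18.9% in the WT-labelled library at 2 or more UMIs, to 16.5% in the KO-labelled library without cells above the 95th percentile of UMIs (10.4% in the WT-labelled, a difference of 6.19 points whose interval, −1.30 to 14.3, includes 0), to 8.86% and 10.8% (1.95 points) at 3700 UMIs, and to 0% (0 of 3 cells) and 14.3% (1 of 7 cells, interval 0.361 to 57.9) in cells with 0 T and NK cell UMIs other than Ccl5, so that no expression comparison could be run there. Thinned before the rule was applied, the members were 0.512% and 0.849% of all cells. T cells were cycling in 31.5% and 13% at 2 or more UMIs, 21.4% of the WT-labelled at 5 or more, and 15.7% and 8.60% thinned, and C1q-low cells in 2.83% of the WT-labelled at 2 or more, 0% at 5 or more, and 0% and 0% thinned.

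Genes past the fold between the libraries (24 KO higher, 44 WT higher) of 2514 were 63 and 87 of 4229 at a minimum of 50 UMIs, 12 and 23 of 1408 at 200, 15 and 11 of 868 in the 29 members with 0 melanoma UMIs other than Gpnmb (2 and 4 of the same genes among them), and 13 KO higher of 1536 with members thinned. Between cycling and noncycling cells, 71 genes of 2837 were higher and 74 lower, 23 of 1442 were higher thinned, and 19 higher and 48 lower of 1417 with 0 melanoma UMIs. As the mean of per-cell CPM, the KO-labelled ratio of the cell cycle genes to cycling T cells was −0.66. CCAAT with TTTGAA alone occurred in 5.17% of all promoters.

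Without the member richest in melanoma UMIs, and equally with members of at least 20 C1q UMIs, log2 ratios reversed for Dct (−1.77), Chchd10 (−0.54), Ero1l (−0.43) and Ndrg1 (−0.11). At 5 or more UMIs Dct was −1.76 and Chchd10 −0.69, and without the top member of each gene Dct was −1.55, Chchd10 −0.45 and Ero1l −0.18. With 0 melanoma UMIs, Ero1l was −0.44, Ndrg1 −0.83, Lamtor3 −0.20, Fabp4 1.89 and Ccl4 2.45, and Ccl24 in cycling over noncycling WT-labelled cells was 1.58. The alternatives that leave out that member, the barcodes in both libraries and the top member of each gene, and those at 20 or more UMIs and at 3700 UMIs, were chosen after seeing the data. The cause of these changes was not tested. Over the genes given here, 793 of 912 values between the libraries and 203 of 240 between cycling and noncycling cells moved by less than counting error. With 32 and 50 cells, a gene of few UMIs in the members could not be compared.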

Other observations

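Of the 27 growth factor receptor and self-renewal genes, 11 had enough UMIs between the libraries. Of these, 3 were past the fold, all higher in WT-labelled members, Csf2rb and Cebpa among them, beside 1.75% of all 2514 genes. Csf2rb, the common beta chain of the GM-CSF and interleukin-3 receptors, stood at 77.2 and 32.2 CPM (log2 −1.25), and Cebpa, a myeloid transcription factor, at 72.2 and 35.6 CPM (−1.02). Without the member rich in melanoma genes Cebpa was at −0.95, short of the limit. Csf1r stood at 219 and 256 CPM (0.22, −0.05 to 0.50), with 1 to 12 UMIs per WT-labelled and 1 to 14 per KO-labelled member.

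The 23 oxidative phosphorylation genes had a median log2 ratio between the libraries of 0.25, with none past the fold, beside a median of 0.05 over all 2514 genes, and summed to 9929.5 and 12039 CPM. Sh3bgrl3, a small thioredoxin-fold protein, had medians of 19.5 UMIs (7 to 54) and 48 UMIs (6 to 166) and stood at 869 and 2142 CPM (1.30, 1.18 to 1.42), with 1.16 in noncycling macrophages and 0.41 in T cells.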
